A study of Homo sapiens with 8 samples.

Results

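The 10 genes DAGLA, DAGLB, DGKA, DGKD, DGKE, DGKH, DGKQ, DGKZ, PRKCB and PRKCD encode enzymes that break down diacylglycerol and kinases that respond to it. Their PML::RARA binding in U937-PR9 cells was read from 1 list of Cut&Run peaks. Peaks were selected on the gene symbol that the authors had given them, and unlabelled peaks were added where their centre lay within 50 kb of the centre of such a labelled peak on the same chromosome. This gave 25 of the 15412 peaks in the list, 13 labelled and 12 unlabelled. The labels fell on 5 of the 10 genes: DAGLB had 5 labelled peaks, DGKZ 4, PRKCB 2, and PRKCD and DGKQ 1 each. DAGLA, DGKA, DGKD, DGKE and DGKH had none. Because the genes were chosen with the list known, how many of them carry a label is a description and was not tested. Among 20090 protein-coding gene symbols, 30.0% had a labelled peak.

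Cut&Run maps where a protein sits on DNA: an antibody recruits a nuclease, which cuts the DNA around the protein so that short fragments can be read. The U937-PR9 line, of monocytic origin, carries a PML::RARA transgene under a zinc-inducible promoter. Cells were incubated for 5 h with ZnSO4 at 100 μM or with water, and both conditions were profiled with an antibody to the PML::RARA fusion and an antibody to RARA, in 2 replicates each, which makes 8 libraries in 4 groups. The list analysed holds the peaks of the fusion antibody in zinc-treated cells that were reproducible across both replicates. A peak has 1 set of values for both replicates, and the spread between them is therefore not known. The depth of the libraries is unknown, and peaks of water-treated cells and of the RARA antibody were not analysed here. An effect of zinc and an effect of PML::RARA cannot be told apart in this list.

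Diacylglycerol is a lipid messenger that phospholipase C releases from membrane phosphoinositides. It recruits proteins with a C1 domain to the membrane, among them the conventional and the other diacylglycerol-responsive isoforms of protein kinase C, and the signal ends when diacylglycerol kinases phosphorylate the lipid to phosphatidic acid or diacylglycerol lipases hydrolyse it. Phorbol esters mimic diacylglycerol at the C1 domain, and U937 cells are widely used as a model in which they drive differentiation towards macrophages.

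The DNA at the apex, the interval of largest signal in a peak, is given for 5 of the peaks on which the account below rests. Each sequence is the plus strand of hg19 from 100 bases before to 100 bases after the apex, 5′ to 3′. Capitals mark matches, on either strand, to the short motifs that were searched for: retinoic acid receptor half-sites, ETS, PU.1, RUNX, C/EBP, AP-1 and SP/KLF sites. The first 4 are from the highest peak of DAGLB (1 of 2 of equal height), PRKCB, PRKCD and DAGLA. DGKQ is left out because its window overlaps an untranslated exon. The last is the window with the most ETS matches.
DAGLB, intron 1, chr7:6486964-6487164: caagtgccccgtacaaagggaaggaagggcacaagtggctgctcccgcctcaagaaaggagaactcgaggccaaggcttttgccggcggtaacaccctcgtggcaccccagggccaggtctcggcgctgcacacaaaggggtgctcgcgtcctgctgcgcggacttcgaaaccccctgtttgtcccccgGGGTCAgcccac
PRKCB, intron 1, chr16:23848062-23848262: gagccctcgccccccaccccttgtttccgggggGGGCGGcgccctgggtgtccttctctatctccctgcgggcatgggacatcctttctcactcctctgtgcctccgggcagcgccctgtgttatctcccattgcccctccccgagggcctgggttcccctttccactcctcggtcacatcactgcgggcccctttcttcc
PRKCD, unlabelled, intron 2, chr3:53203457-53203657: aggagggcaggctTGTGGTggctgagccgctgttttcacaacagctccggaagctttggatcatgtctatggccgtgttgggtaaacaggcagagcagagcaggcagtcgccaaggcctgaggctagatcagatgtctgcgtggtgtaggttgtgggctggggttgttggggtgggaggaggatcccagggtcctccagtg
DAGLA, unlabelled, intron 1, chr11:61465780-61465980: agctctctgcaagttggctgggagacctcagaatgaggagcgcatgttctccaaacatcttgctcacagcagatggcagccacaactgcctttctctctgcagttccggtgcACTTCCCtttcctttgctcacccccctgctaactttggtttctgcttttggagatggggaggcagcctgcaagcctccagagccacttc
PRKCD, unlabelled, intron 2, chr3:53201047-53201247: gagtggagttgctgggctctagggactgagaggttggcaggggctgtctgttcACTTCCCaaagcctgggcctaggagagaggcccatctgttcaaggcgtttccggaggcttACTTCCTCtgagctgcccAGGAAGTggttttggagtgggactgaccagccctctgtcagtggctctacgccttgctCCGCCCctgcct

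Peak height is the largest signal within a peak and peak width its length in bp. Ranks are counted from the highest or widest of the 15412 peaks, and peaks of equal value share a rank. The 13 labelled member peaks ranged in height from 16 to 42 (median 25), and their widths lay between 246 and 2751 bp (median 1188 bp). All 7169 labelled peaks of the list had a median height of 26 and a median width of 1108 bp. By height, 6 of the 13 were at or above that median of labelled peaks, and by width 7 of the 13. None of the 13 reached the top 10% of the list by height, which began at 43. The labelled member peaks thus lay on both sides of the typical promoter peak by either measure. The 12 unlabelled peaks near them ranged from 16 to 44 in height (median 26.5), and their widths lay between 284 and 2542 bp (median 772.5 bp). All 8243 unlabelled peaks had medians of 23 and 634 bp. Of the 12, the 2 that reached the top 10% by height lay at PRKCD and DGKZ.

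**Figure D1:**
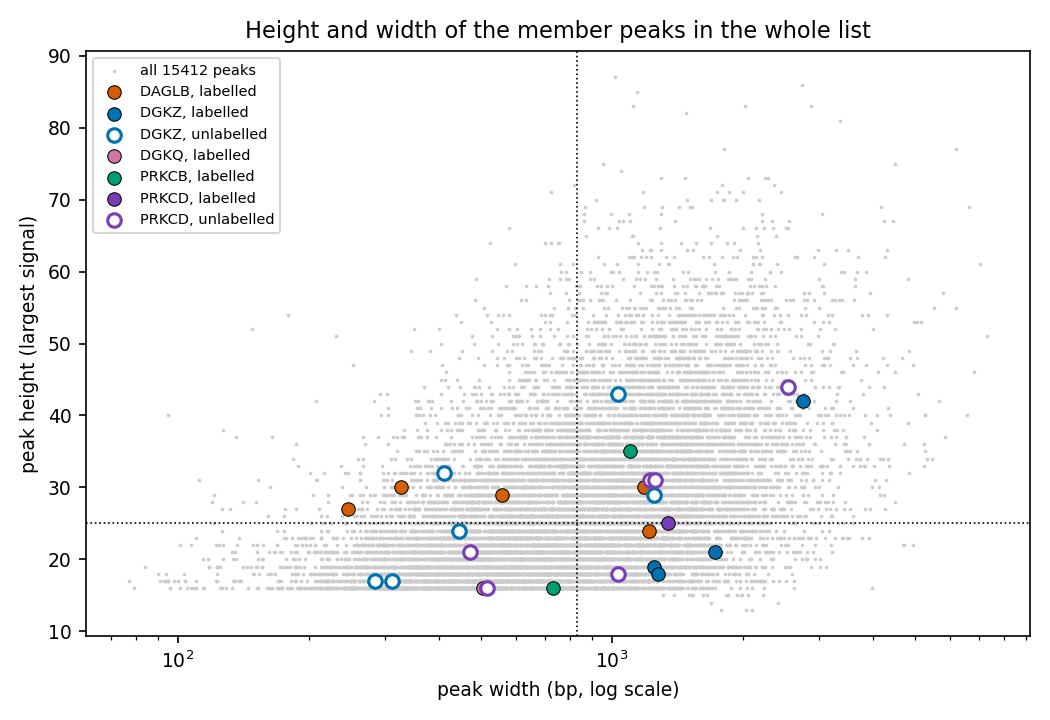
Peak width (bp, log scale, horizontal) against peak height (largest signal, vertical) for all 15412 peaks in grey, the 13 labelled member peaks as filled points and the 12 unlabelled peaks near them as open points, with dotted lines at the list's medians of 829.5 bp and 25. The DGKZ peak of height 42 and the unlabelled PRKCD peak of height 44 are 2751 and 2542 bp wide, while the 3 narrow DAGLB peaks lie left of the median width and above the median height.

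DAGLB encodes diacylglycerol lipase beta, which hydrolyses diacylglycerol to an endocannabinoid monoacylglycerol and is the lipase isoform typical of macrophages. The gene (ENSG00000164535) lies on the minus strand of chromosome 7 from 6448757 to 6523821, and its canonical transcript starts at 6487585. Its 5 labelled peaks spanned 25.5 kb and had heights of 30, 24, 29, 30 and 27 in the order of their coordinates. They were of near-equal height, and 4 of the 5 stood above the list's median of 25. Their widths differed more, at 326, 1220, 558, 1188 and 246 bp.

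The first DAGLB peak (chr7:6462802-6463127) ranked 4820 by height and 14278 by width, so it was among the narrowest peaks of the list. The second (chr7:6463458-6464677) ranked 7817 by height and 4182 by width. Both had their apex in intron 8 of the canonical transcript, 603 and 1621 bp upstream of the start of a retained-intron transcript. The third (chr7:6475873-6476430) ranked 5211 by height and 11176 by width. Its apex lay in exon 3, and the nearest DAGLB start site in GENCODE was 11480 bp away. The fourth (chr7:6486628-6487815) ranked 4820 by height and 4401 by width, with its apex in intron 1, 521 bp downstream of the canonical start. The fifth (chr7:6488098-6488343) ranked 6155 by height and 14995 by width, with its apex 562 bp upstream of that start. Of the 5 peaks, these last 2 lay nearest to the canonical start.

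The 5 DAGLB rows were not fragments of one region. The gaps between them were 330, 11195, 10197 and 282 bp. Neighbouring peaks closer than 1 kb were joined, and this left 3 regions. The first pair formed a region of 1876 bp (chr7:6462802-6464677) and the last pair one of 1716 bp (chr7:6486628-6488343), while the exon 3 peak stood alone. In each pair a narrow piece lay beside a wider one, of 1220 or 1188 bp, and the deposited interval did not include the gap. Across the whole list, 1004 of 15389 neighbouring pairs, or 6.52%, were less than 1 kb apart, and the median gap was 32959 bp.

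Only RAC1 had as many labelled peaks as DAGLB, and it is a close neighbour on the same chromosome. RAC1 encodes a small GTPase of the cytoskeleton and of the phagocyte oxidase. Its 5 peaks lay within chr7:6412848-6414760, with heights from 20 to 42 and widths from 101 to 397 bp, so they were packed into one promoter rather than spread over a gene. No unlabelled peak lay within 50 kb of a DAGLB peak. The nearest one outside that limit (chr7:6543177-6544617, height 21) was 55.7 kb away by centre. The farthest unlabelled peak inside the limit, at DGKZ, was 25.7 kb from a labelled centre. GENCODE also lists a DAGLB transcript that starts within 17 bp of the apex of a peak labelled KDELR2 (chr7:6522941-6524328, height 20).

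DGKZ encodes diacylglycerol kinase zeta, which converts diacylglycerol to phosphatidic acid and dampens diacylglycerol signalling in lymphocytes. The gene (ENSG00000149091) lies on the plus strand of chromosome 11 from 46354455 to 46402104, and GENCODE gives it 22 distinct start sites. The heights of its 4 labelled peaks were 19, 42, 21 and 18 in the order of their coordinates, and their widths 1248, 2751, 1727 and 1276 bp. One peak stood well above the other 3 by both measures.

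That peak (chr11:46366395-46369145) ranked 1553 by height and 314 by width, and it was wider than 98.0% of the list. Its right end covered the canonical start site at 46369013. Its apex lay 2037 bp upstream of that start and 6 bp upstream of the start of a retained-intron DGKZ transcript. The first peak (chr11:46352089-46353336) ranked 11488 by height and 3979 by width, with its apex 1626 bp upstream of the first protein-coding start. The third (chr11:46369333-46371059) ranked 9879 by height and 1680 by width, with its apex in intron 1. The last (chr11:46382492-46383767) ranked 12401 by height and 3813 by width, and its apex lay 35 bp upstream of an internal start site. The apexes of 2 of the 4 DGKZ peaks thus lay within 35 bp of a start site, at different starts of the gene. For the highest peak that start belonged to the retained-intron transcript.

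The 4 DGKZ rows likewise formed 3 regions. The gaps between labelled peaks were 13058, 187 and 11432 bp, and only the pair 187 bp apart joined, into a region of 4665 bp (chr11:46366395-46371059) with a height of 42. In the first gap lay 2 unlabelled peaks. One (chr11:46363300-46364329) had a height of 43, rank 1386, above 89.9% of the list and 1 unit above the main labelled peak. The other (chr11:46358330-46358740) reached 32 over 411 bp. Both lay inside the annotated DGKZ gene and upstream of its canonical start. A further 4 unlabelled peaks lay upstream of the gene, from 46326833 to 46341033, with heights of 17, 17, 24 and 29. For each of these 4 the nearest protein-coding start site was that of CREB3L1, so their place near DGKZ follows from the distance limit.

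**Figure D2:**
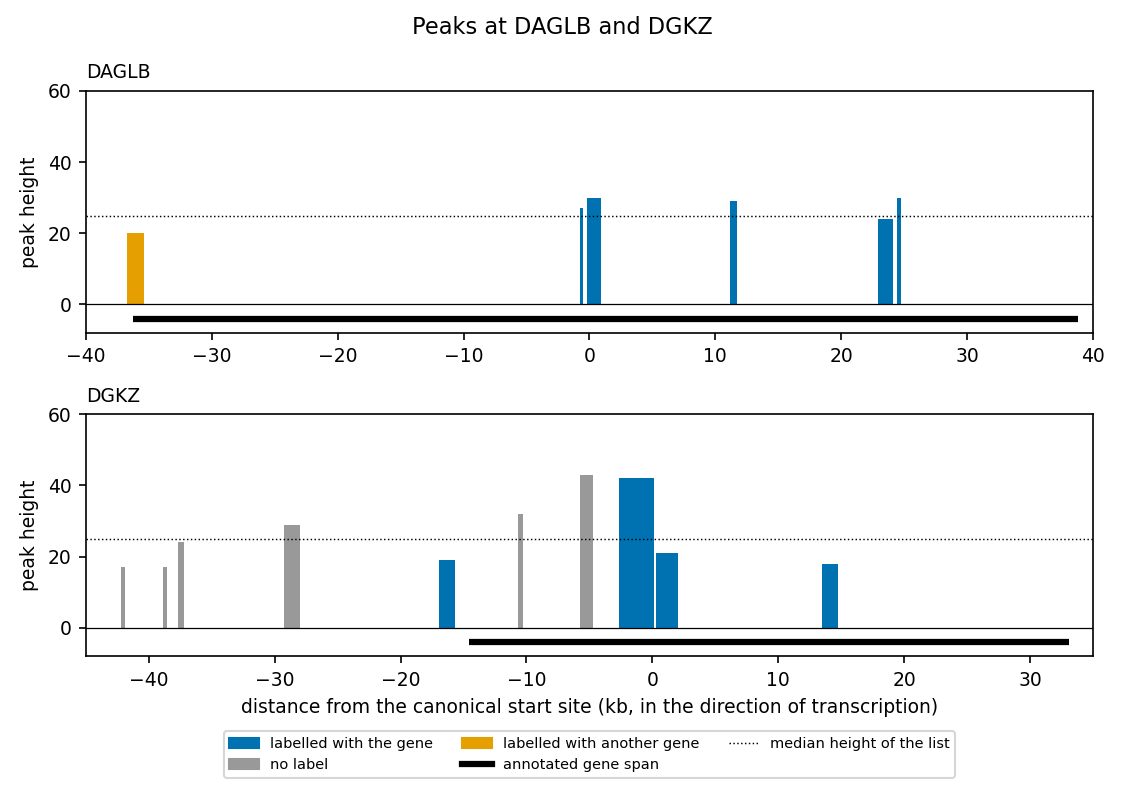
Peaks at DAGLB (top) and DGKZ (bottom), as bars from their start to their end, by distance from the canonical start site in the direction of transcription (kb, horizontal) and by height (vertical), with the gene's span as a black line and the list's median height of 25 dotted. The 5 labelled DAGLB peaks form 3 separate regions of similar height, whereas at DGKZ the labelled peak of height 42 and an unlabelled peak of 43 stand above the rest.

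DGKQ encodes diacylglycerol kinase theta. The gene (ENSG00000145214) lies on the minus strand of chromosome 4 from 952675 to 980683. Its only labelled peak (chr4:967232-967736) was 16 high, a value held by 1115 peaks at rank 14278, and 505 bp wide at rank 11953. The apex lay 22 bp upstream of the canonical start site, so a precisely placed peak was also one of the lowest in the list. No unlabelled peak lay within 50 kb. A peak labelled IDUA (chr4:980527-981954, height 24) covered the outermost annotated DGKQ start.

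PRKCB encodes protein kinase C beta, a conventional isoform activated by calcium together with diacylglycerol and abundant in myeloid and B cells. The gene (ENSG00000166501) lies on the plus strand of chromosome 16 from 23847304 to 24231932. Its 2 labelled peaks had heights of 16 and 35. The lower one (chr16:23846747-23847476) ranked 14278 by height and 8845 by width, with its apex 97 bp upstream of the canonical start. The higher one (chr16:23847641-23848743) ranked 3088 by height and 5062 by width, with its apex in intron 1, 858 bp downstream of that start. A gap of 164 bp separated them, so by the 1 kb limit they form one region of 1997 bp. The higher peak's apex also lay 382 bp upstream of another protein-coding PRKCB start site, so both labelled peaks lay within 1 kb of an annotated start. The 2 other peaks over the gene had no label and heights of 21 and 20, in introns 2 and 3 (chr16:23978094-23978671 and chr16:24025361-24025960), both over 50 kb from the labelled pair, which had no unlabelled peak within that distance.

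PRKCD encodes protein kinase C delta, a calcium-independent isoform that phosphorylates components of the phagocyte oxidase and takes part in apoptosis. The gene (ENSG00000163932) lies on the plus strand of chromosome 3 from 53190025 to 53226733. Its 1 labelled peak (chr3:53194540-53195887) was 25 high, the list's median, at rank 7226, and 1348 bp wide at rank 3364. The apex lay 496 bp upstream of the canonical start site. Of the 6 unlabelled peaks within 50 kb, 3 lay in intron 2 and were all higher than the labelled one. The highest of these (chr3:53202878-53205419) stood at 44, rank 1234, and measured 2542 bp across, rank 427. Its neighbours (chr3:53200406-53201627 and chr3:53205741-53206995) both had a height of 31. Intron 2 of PRKCD thus held more signal than the labelled peak near the canonical start. The total signal of the highest peak was 34046 against 9371 for the labelled one. The apex of the highest peak lay 744 bp downstream of another protein-coding PRKCD start site, so it too was within 1 kb of a start. The other 3 unlabelled peaks, upstream of the labelled one, had heights of 16, 21 and 18.

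Of the 5 genes without a label, 4 had a peak over the gene. The share of all protein-coding symbols with a peak over the gene is not given here, so this count is a description. DAGLA encodes diacylglycerol lipase alpha, the isoform typical of neurons. The gene (ENSG00000134780, plus strand, chromosome 11 from 61447863 to 61514473) had no apex within 3 kb of a start site. Instead 4 unlabelled peaks lay in intron 1, within 7584 bp (chr11:61463158-61470741), with heights of 35, 53, 20 and 16. The peak of height 53 (chr11:61465300-61466615) exceeded 96.8% of the list and was higher than every labelled peak of the 10 genes. Its apex lay 18017 bp downstream of the canonical start.

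DGKA encodes diacylglycerol kinase alpha, a calcium-regulated isoform of lymphocytes. The gene (ENSG00000065357, plus strand, chromosome 12 from 56321103 to 56347811) shares its 5′ end with PYM1, which is read in the opposite direction. A peak labelled PYM1 (chr12:56320397-56322030, height 34) had its apex 16 bp upstream of a PYM1 start. The apex lay 345 bp upstream of the start of a retained-intron DGKA transcript and 3252 bp upstream of the canonical DGKA start. A second peak with the PYM1 label (chr12:56322930-56323606, height 22) was nearest to a DGKA start site, 860 bp away, and lay 1594 bp upstream of the canonical one. An unlabelled peak of height 23 had its apex in exon 11 of DGKA, 446 bp downstream of the start of another retained-intron transcript. At DGKE (ENSG00000153933, plus strand, chromosome 17 from 54911468 to 54946928), which encodes the arachidonate-selective kinase epsilon, a peak labelled C17orf67 (chr17:54910478-54912587, height 30, width 2110 bp) had its apex 23 bp upstream of C17orf67 and 164 bp upstream of DGKE. For both genes a peak within 1 kb of an annotated start was present under the symbol of a divergent neighbour. Only at DGKE was the canonical start that near, at 208 bp.

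DGKD (ENSG00000077044, plus strand, chromosome 2 from 234263140 to 234380750) encodes diacylglycerol kinase delta. It had 3 unlabelled peaks, with heights of 34 and 24 upstream of its start (chr2:234257449-234258590 and chr2:234259369-234259775) and of 28 in intron 1 (chr2:234265546-234266022). Their apexes lay 5153 and 3598 bp upstream of the nearest start and, for the intron 1 peak, 2564 bp downstream of another, so none met the distance of 1 kb. DGKH (ENSG00000102780, plus strand, chromosome 13 from 42614172 to 42830714) encodes diacylglycerol kinase eta and was the only one of the 10 genes with no peak over it. The nearest peak lay 14744 bp away and was labelled AKAP11.

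**Figure D3:**
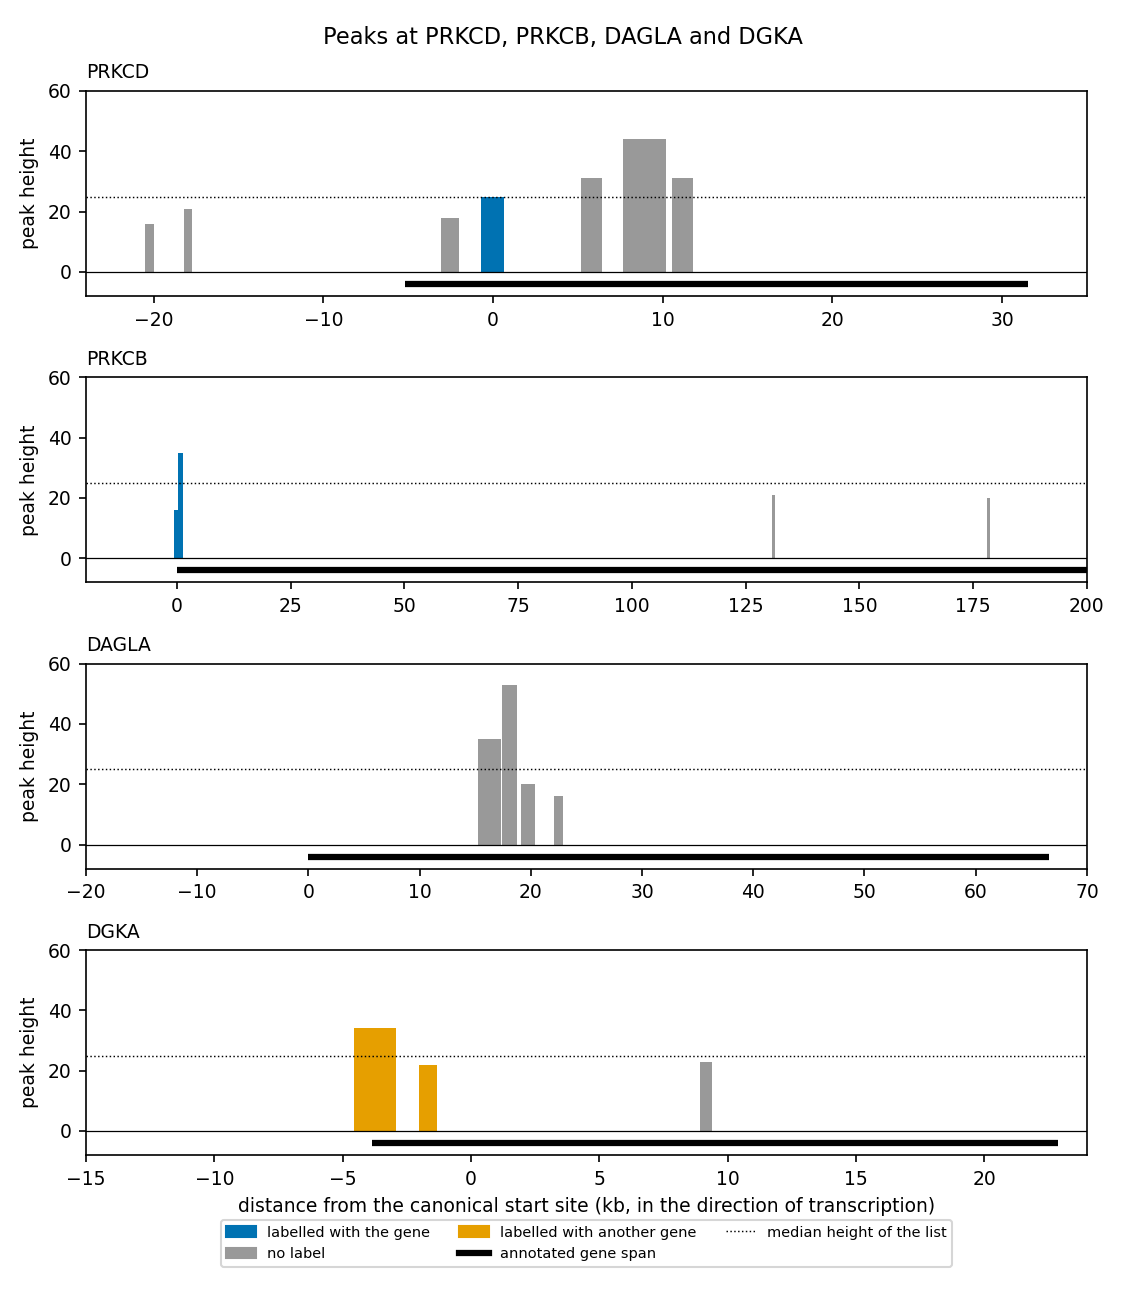
Peaks at PRKCD, PRKCB, DAGLA and DGKA, drawn as bars by distance from the canonical start site (kb, horizontal; the scale differs between panels) and height (vertical), blue where labelled with the gene, grey without a label and orange with another gene's label. The highest bars of PRKCD (44) and DAGLA (53) are unlabelled and lie in introns. The peaks shown upstream of the canonical start of DGKA carry the label PYM1.

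When a peak was instead given to a gene by an apex within 1 kb of any of its own start sites in GENCODE, 7 of the 10 genes had a peak, because DGKA and DGKE joined the 5 labelled genes. By that rule 39.3% of the 20090 protein-coding symbols had one. Within 3 kb it was 8 of the 10 genes, with DGKD added, and 42.1% of the protein-coding symbols. Of the 13 labelled member apexes, 9 lay within 1 kb of a start site of the gene they named, at a median distance of 499 bp over the 13. Among 6974 labelled peaks whose symbol was found in GENCODE on the same chromosome, 6438, or 92.3%, lay within 1 kb, with a median of 102 bp. The other 4 were DAGLB and DGKZ peaks, 2 of each gene. The authors had assigned symbols with the UCSC known genes, and which of its start sites they used was not tested. Of the 5 labelled members, 3 had more than 1 labelled peak, where 8.42% of all 6546 labelled genes did. The genes were chosen with the list known, so this too is a description and was not tested. At PRKCB the labelled peaks form 1 region by the 1 kb limit.

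The wider pathway was described with a list of 73 genes in 11 classes, of which 33, or 45.2%, had a labelled peak. Without the 10 members it was 28 of 63 genes, or 44.4%, beside 30.0% of all protein-coding symbols. By an apex within 1 kb of an own start site the gap was smaller, with 36 of the 73 genes, or 49.3%, and 46.0% of the 63 genes, beside 39.3% of all protein-coding symbols. The list was drawn up with earlier results of these data known, so the shares are a description. The counts of single classes below are of labelled peaks unless stated, and the same 30.0% stands beside each. Heights of the 32 labelled peaks at the 63 genes had a median of 25, near the 26 of all labelled peaks.

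Among the enzymes that hydrolyse monoacylglycerol, ABHD6 and ABHD12 had a labelled peak each, with heights of 31 and 24. MGLL, the main monoacylglycerol lipase, had none. Of the 10 diacylglycerol kinases, 3 had a labelled peak: DGKZ, DGKQ and DGKG, the last 24 high and 1469 bp wide. DGKA, DGKB, DGKD, DGKE, DGKH, DGKI and DGKK had none. Of the 9 protein kinase C genes, 5 had one. Besides PRKCB and PRKCD these were PRKCE (height 28), PRKCH (22) and PRKCI (23). The PRKCE peak was 3024 bp wide, more than 98.6% of the list, whereas those of PRKCH and PRKCI measured 457 and 335 bp. PRKCA, PRKCQ and PRKCZ were among those with no labelled peak, although an unlabelled peak of height 38 had its apex within 1 kb of a PRKCZ start site.

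Upstream of the messenger, 5 of 13 phospholipase C genes, or 38.5%, had a labelled peak. The highest was at PLCB2 (height 36, with a second labelled peak 2079 bp wide). The highest peak with its apex within 1 kb of a PLCB2 start site in GENCODE was that second one, 30 high. PLCB2 is the isoform typical of blood cells. All 3 inositol trisphosphate receptors, the calcium channels opened by the other product of phospholipase C, had one, led by ITPR1 37 high and 2058 bp wide. Of 6 phosphatidate phosphatases, which make diacylglycerol from phosphatidic acid, LPIN1 (height 45) and LPIN2 (31) had one. LPIN1 held the highest labelled peak of the 73 genes, and its widest measured 1018 bp. The highest peak with its apex within 1 kb of an LPIN1 start site in GENCODE was 29 high. DGAT1, which turns diacylglycerol into triacylglycerol, was the only 1 of 5 acyltransferases with a labelled peak, of height 35.

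Further classes held other proteins with a C1 domain and proteins downstream of protein kinase C. RASGRP2 encodes an exchange factor for Rap GTPases with a C1 domain. Its labelled peak, 4832 bp wide and 32 high, was the widest of the 73 genes. RASGRP2 was 1 of 2 labelled genes among 9 other C1-domain proteins, with UNC13B. PRKD2 was the labelled gene of 3 protein kinase D genes, with 2 peaks of height 25, the wider of 2608 bp. Only the narrower, of 1235 bp, had its apex within 1 kb of a PRKD2 start site in GENCODE. Of the 6 substrates and anchors, 5 had a labelled peak, and MARCKSL1, which encodes a relative of the kinase substrate MARCKS, had both the highest and the widest, 40 high and 3362 bp wide. By an apex within 1 kb of an own start site it was 3 of the 6, and neither MARCKS nor MARCKSL1 was among them. In the complex that links protein kinase C to NF-kB, MALT1 had the highest, at 37, and BCL10 one of 27. The widest was that of CARD9, the myeloid adaptor, at 1704 bp and a height of 18.

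**Figure D4:**
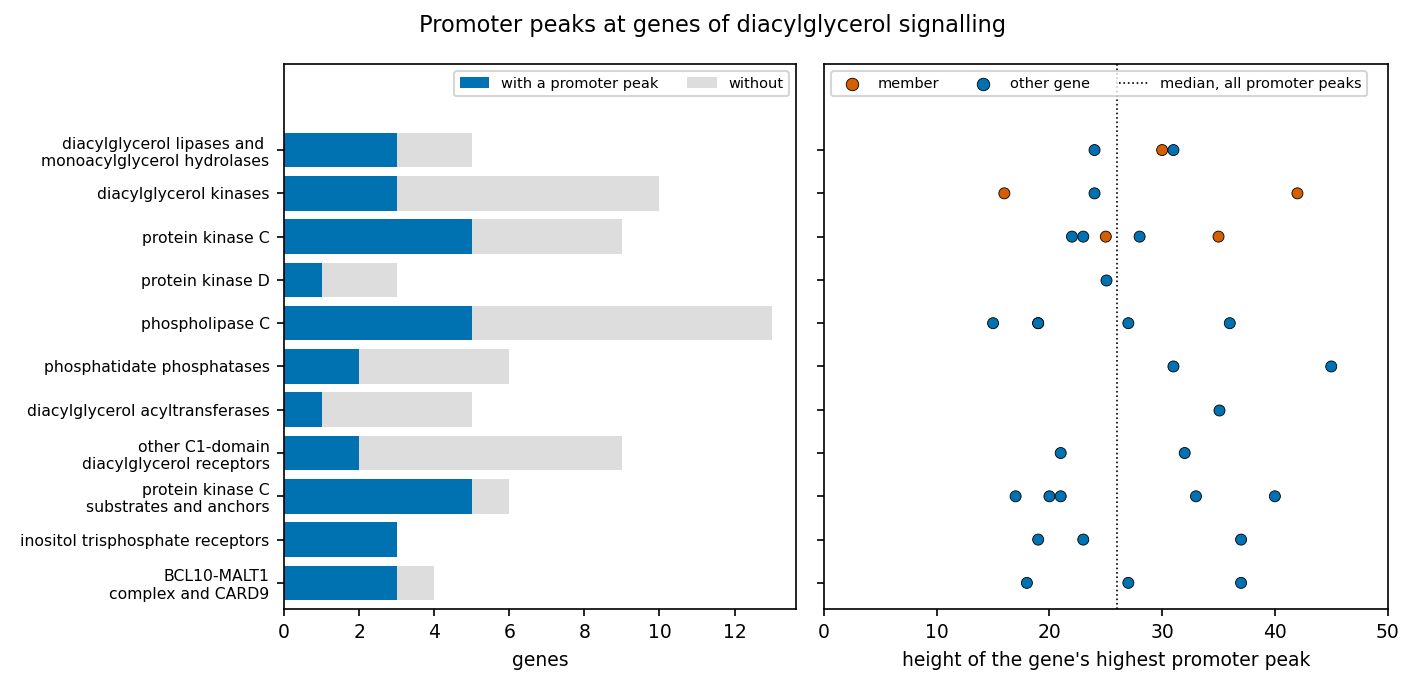
Left, number of genes with (blue) and without (grey) a promoter peak under their symbol in each of the 11 classes; right, height of the highest promoter peak of each gene that has one, members in orange, other genes in blue, with the median of 26 of all promoter peaks dotted. The values reach from 15 for PLCB3 to 45 for LPIN1, and the members lie among the other genes. A promoter peak here is any peak labelled with the gene, also where its apex lies over 1 kb from the gene's start sites in GENCODE.

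Short motifs were searched for on both strands in windows of 401 bp centred on the apex. A half-site of the retinoic acid receptor (AGGTCA, its close variants GGGTCA and also AGTTCA, or as a further form GGTTCA) occurred in 9 of the 13 labelled windows, or 69.2%, and in 8 of the 12 unlabelled ones, or 66.7%. Among all labelled peaks the share was 45.6% and among all unlabelled peaks 63.7%. A pair of half-sites on 1 strand with 0 to 8 bases between them occurred in 0 of the 25 windows and in 1.80% of all 15412. An ETS site (AGGAAGT or GGGAAGT) occurred in 6 of the 13 labelled windows, all at DAGLB and DGKZ, and in 8 of the 12 unlabelled ones, beside 22.3% and 40.5% of all labelled and all unlabelled peaks. The longer PU.1 form (GAGGAAGT), which contains an ETS site, was found in 3 and 3, beside 5.27% and 11.8%.

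No window of the labelled PRKCB, PRKCD or DGKQ peaks held an ETS site, where 22.3% of all labelled peaks did. With so few windows this is a description. In intron 2 of PRKCD, the peak of height 31 at chr3:53200406-53201627 had 4 ETS matches within 200 bp of its apex. This was the most of the 25 windows, and 3 of the matches are within the 201 bases printed. The highest PRKCD peak, at 44, held a RUNX site and no other match.

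GC-rich SP/KLF sites (GGGCGG) were found in 6 of the 13 labelled windows, or 46.2%, beside 76.2% of all labelled peaks, and in 1 of the 12 unlabelled ones, or 8.33%, beside 24.9%. DGKQ held 9 of them, the most of the 25 windows. The ratio of observed to expected CpG dinucleotides had a median of 0.571 in the labelled member windows and 0.808 in all labelled peaks. It ranged from 0.191 at the third DGKZ peak to 0.843 at DGKQ. DGKQ and the lower PRKCB peak, both of height 16, had the highest values of the 13. C/EBP sites (TTGCNNAA) occurred in 3 of the 13 labelled and 3 of the 12 unlabelled windows, beside 10.3% of all labelled and 22.6% of all unlabelled peaks. RUNX sites (TGTGGT) were in 2 of the 13 and 3 of the 12, beside 15.4% and 40.3%. AP-1 sites (TGANTCA, which reads the same on both strands) were in 2 of the 13 and 2 of the 12, beside 7.41% and 26.7%. A match of letters is not a measurement of binding by the factor, and the windows of 1 gene are not independent.

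**Figure D5:**
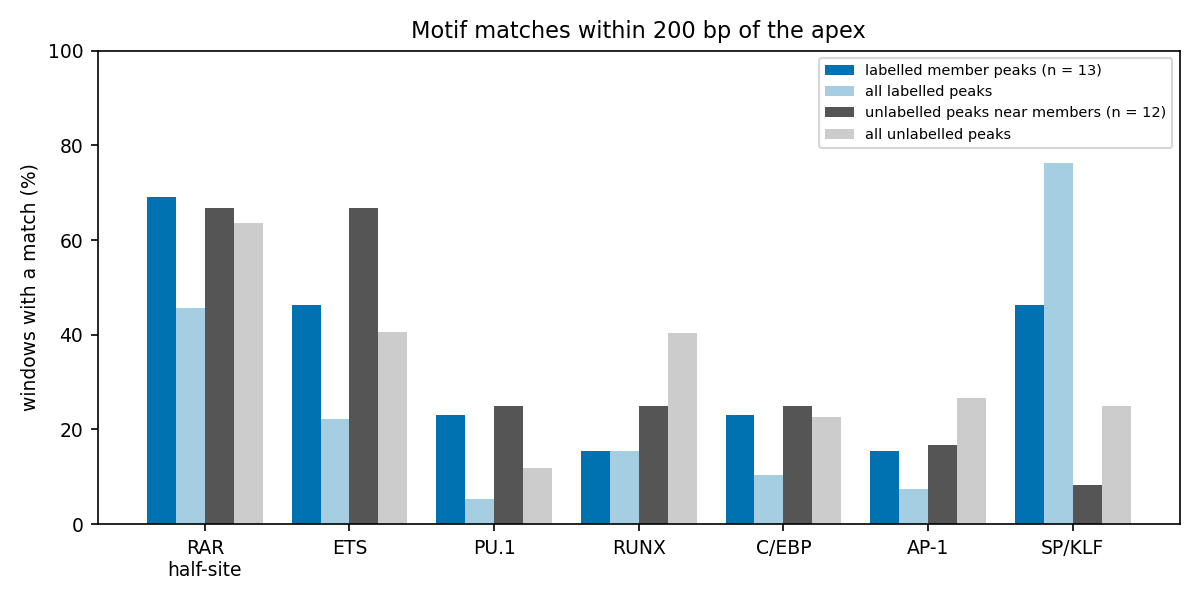
Share of apex windows of 401 bp (percent, vertical) that hold a match to each motif, for the 13 labelled member peaks, all labelled peaks, the 12 unlabelled peaks near members and all unlabelled peaks. ETS matches were in 46.2% and 66.7% of the member windows beside 22.3% and 40.5% in the list, and SP/KLF matches in 46.2% of labelled member windows beside 76.2% in the list; 1 window is 7.69% of the labelled members.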

How the data were processed

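Per the study's methods, adapter trimming used Trimmomatic and alignment to hg19 used Bowtie2. Duplicate reads (Samtools) and blacklisted reads (Bedtools) were discarded, and SEACR called the peaks over paired control experiments with its norm and union settings, where norm scales control and target to each other. Tool versions are not given in the sources used here. Peaks with an IDR below 0.05 across 2 replicates were kept. The authors deposited, for each peak, a value named summit and a SEACR score in whole numbers. The value named summit was read here as the total signal, and the score as the largest signal within the peak, here the height. Whether the deposited signal was otherwise scaled between the antibody libraries is not given in the sources used here. The gene symbols are the authors' own.

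The members and gene lists were chosen with earlier results of these data known. Gene positions came from GENCODE release 44 on GRCh37, which has the coordinates of hg19, and the apex was the midpoint of the interval of largest signal. Values were ranked over all 15412 peaks and no test was run. All 10 members were named, with genes of the family without a label, the genes with the highest and widest promoter peak of each class, the unlabelled peaks in the top 10% by height or else the highest of each member, and genes with as many labels as DAGLB. The remaining peaks at the members were added after their values were seen, as were other genes of the classes. The joining of peaks was checked on an artificial list. Some genes and sequences that this rule names are not reported here. Alternatives were other distances, thresholds, gene assignments and windows. Analyses used Python 3.11.15, numpy 2.4.6, pandas 2.3.3, scipy 1.17.1, pysam 0.24.0 and matplotlib 3.10.9.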

Additional observations from a re-analysis of the deposited data

How the results depend on the processing

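No paired analysis was possible because both replicates share 1 set of values. Leaving out a replicate could not be done either. The number of the 10 genes with a promoter peak, 5 by label, was 8 by an apex within 3 kb of an own start site, where DGKA, DGKE and DGKD were added and 42.1% of protein-coding symbols had a peak. The 13 labelled peaks became 7 at or above the list's median height and 8 at or above its median width, which shorten the list by construction. Merging peaks less than 1 kb apart moved the median height of labelled member peaks from 25 to 29 and the median width from 1188 to 1348 bp, because each region takes its highest value and joint span. With the highest or widest peak of each gene the medians were 30 and 1220 bp. Of the 73 pathway genes, 18 had a labelled peak at or above the median height, against 33 in all. That threshold lowers the count by construction, and the share of all genes at that height is not given here. By an apex within 1 kb of an own start site it was 36 of the 73, or 49.3%, beside 39.3% of all protein-coding symbols. Half-sites were found in 48.0% of the 25 windows within 100 bp of the apex, against 68.0% within 200 bp. Among all peaks of the list the shares were 35.7% and 55.3%. The 3 regions each of DAGLB and DGKZ were the same number with gaps of 500 bp and 2 kb. The unlabelled peaks near members numbered 8 within 20 kb, 12 by the gap between edges and 17 within 100 kb, against 12.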
